A study of Mus musculus with 36 samples.

Results

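The Hox genes examined here are the 39 protein-coding genes of the mouse Hoxa, Hoxb, Hoxc and Hoxd clusters. They were taken by symbol, as every gene named Hoxa, Hoxb, Hoxc or Hoxd followed by a number and nothing else, and they made up 39 of the 21699 genes counted. Values are given for 38 of them, and all counts, shares and sums below are over these 38. The study asked how loss of the miR-17~92 microRNA cluster alters the developing mouse gonad, and measured RNA by sequencing in XX and XY embryos at E11.5 and E12.5 (embryonic days). At each stage there were 4 groups of 3 libraries, control and KO embryos of each sex. KO embryos carried the Tg(CAG-cre)1Nagy transgene and were del/del for the miR-17~92 cluster, a Cre driven by the ubiquitous CAG promoter having removed the floxed allele from the whole embryo, on a background of C57BL/6 and 129S4/SvJae. Controls were labelled WT. Each library pooled 2 pairs of gonads, so p-values measure the spread between such pools. At E11.5 the dissection held the gonad with the mesonephros, the embryonic kidney beside it, and at E12.5 the gonad was taken alone, with a different library kit. Stage, dissection and kit therefore cannot be told apart, and the stages are only set side by side.

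Hox genes encode homeodomain transcription factors that give cells their position along the body axis. Within a cluster the genes lie in the order of their paralogue numbers, and those with low numbers are in general switched on earlier and farther forward than those with high numbers, so that each tissue carries a combination, or code, of active paralogues. In the urogenital tract, Hoxa9, Hoxa10, Hoxa11 and Hoxa13 pattern the Müllerian duct from oviduct to cervix, the Hox11 paralogues are needed for the metanephric kidney, and the high-numbered Hoxd genes act in limbs and external genitalia. On mm10 the 10 Hoxa genes described span chr6:52162417-52260880, the Hoxb cluster (10 genes) chr11:96194316-96368256, the Hoxc cluster (9 genes) chr15:102921103-103036852 and the Hoxd cluster (9 genes) chr2:74668310-74765142. Hoxd3 and Hoxd4 share 62.3% and 52.3% of their exon bases with other genes on the same strand, chiefly each other, so their separate counts are uncertain. Antisense transcripts cover 52.9% of the exon bases of Hoxb3, 35.0% of Hoxa11, 27.3% of Hoxb2, 25.4% of Hoxa3 and 20.4% of Hoxa7, and since the strand setting of the counting was not given, reads of these pairs cannot be told apart.

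The deleted cluster encodes 6 mature guide strands in 4 seed families. A microRNA pairs with messenger RNAs through its seed, here bases 2 to 8, and lowers their stability or translation. The RefSeq mature sequences (GRCm38.p6) are shown because they are what the KO embryos lacked and because their seeds were looked for in the Hox messages; capitals mark the seed.
miR-17-5p: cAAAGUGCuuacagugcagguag
miR-20a-5p: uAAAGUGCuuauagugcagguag
miR-18a-5p: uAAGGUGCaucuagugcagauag
miR-19a-3p: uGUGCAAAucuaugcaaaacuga
miR-19b-3p: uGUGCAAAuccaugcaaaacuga
miR-92a-3p: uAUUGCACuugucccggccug

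The 7-base complements of these seeds were searched on the transcribed strand of the annotated 3′ UTRs. They were found in 8 of the 38 Hox genes (21.1%), against 33.2% of all tested genes and 28.3% of tested genes with a 3′ UTR between 481.5 and 1926 bases, a range set around the Hox median of 963 bases. By family, 1 Hox gene (2.63%) held the miR-17 match, GCACTTT, against 14.1% of tested genes, none held the miR-18 match, GCACCTT, against 9.24%, 4 (10.5%) held the miR-19 match, TTTGCAC, against 13.04%, and 3 (7.89%) held the miR-92 match, GTGCAAT, against 7.65%. Matching genes that were also called at E12.5 are printed, 30 bases each, with the match in capitals.
Hoxa5, miR-19 match, chr6:52201964-52201993, minus strand: gcctttgtaggacccTTTGCACgaactctg
Hoxa9, miR-19 match, chr6:52223395-52223424, minus strand: agcttgaatattgttTTTGCACcagaggag
Hoxb8, miR-92 match, chr11:96284804-96284833, plus strand: taaaaaagcctccttGTGCAATggtctgtt
Hoxd8, miR-92 match, chr2:74707430-74707459, plus strand: cacattagctgaagaGTGCAATgtattgtc

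A match is a run of letters and not evidence of a site in use. The other 4 genes with a match were Hoxb1, Hoxb13, Hoxc11 and Hoxc13.

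The libraries held 17150620 to 34077443 counts at E11.5 and 11877379 to 44155275 at E12.5. Xist and Ddx3y matched the sex label in all 24 libraries. Mir17hg, the host transcript of the cluster, was higher in every KO library (98.1 to 154 CPM, counts scaled to library size, against 17.5 to 44.6 in controls at E11.5, and 66.7 to 83.8 against 13.4 to 37.3 at E12.5), which separates the genotypes but does not measure the deleted part. The gonadal markers Nr5a1 and Gata4 were present in every library, at 44 to 137 and 88.3 to 189 CPM at E11.5. Replicate libraries differed by more than counting noise in every group, so none was counted as a duplicate.

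Which Hox genes were active was read from levels per length, in CPM per kb of exon. At E11.5, 35 of the 38 passed the filter of 1 CPM in at least 2 of 12 libraries, and Hoxb13, Hoxc12 and Hoxc13 did not. Of these, 34 passed in each group alone, and Hoxb1 passed only through the XX controls. The highest level was that of Hoxd9, at 42.0 ± 5.7 CPM per kb (SD over the 12 libraries of the stage), followed by Hoxa5 at 39.2 ± 6.8, Hoxc8 at 38.9 ± 3.3, Hoxd4 at 34.8 ± 10 and Hoxc6 at 32.4 ± 3.9. Each of the 5 differed from the next by less than their spread over libraries. Counted over the longest coding transcript instead of the union of exons, Hoxc8 stood at 59.0 and Hoxc6 at 49.3 CPM per kb, so the order at the top depends on which exons are taken as the gene. The code of the gonad with mesonephros was thus broad. All clusters and every paralogue number from 1 to 13 held a gene that passed in each group alone. For number 1 this was Hoxd1, and for numbers 11 to 13 Hoxa11, Hoxc11, Hoxd11, Hoxd12, Hoxa13 and Hoxd13. Hoxb1, at the front, averaged 0.230 ± 0.22 CPM per kb, and among the high numbers Hoxa13 averaged 0.812 ± 0.46, Hoxd12 2.14 ± 1.1 and Hoxd13 3.45 ± 2.0.

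At E12.5 the isolated gonad held a narrower code led by the Hoxd cluster. Only 28 Hox genes passed the filter; Hoxa11, Hoxa13, Hoxb1, Hoxb13, Hoxc11, Hoxc12, Hoxc13, Hoxd1, Hoxd12 and Hoxd13 did not. Of the 28, 22 passed in each group alone and 6 (Hoxa2, Hoxa4, Hoxa6, Hoxb5, Hoxb6 and Hoxb8) passed in every group except the XY controls. Hoxd9 again had the highest level, 37.0 ± 8.3 CPM per kb over 12 libraries, and stood apart from the next, Hoxd8, at 19.0 ± 4.6. Hoxd4 at 13.8 ± 2.2, Hoxc8 at 13.7 ± 3.9, Hoxc6 at 13.1 ± 2.3 and Hoxd10 at 12.99 ± 5.5 CPM per kb did not differ beyond their spread over all 12 libraries. In XY controls alone Hoxd10 was at 21.4 ± 1.8 CPM per kb (SD, n = 3), above Hoxc8 at 11.48 ± 2.2. These levels rest on the union of exons. The longest coding transcript has 1868 bases against 2832 in the union for Hoxc8, and 1581 against 2408 for Hoxc6. For Hoxd8 it has 2634 against 2744, and for Hoxd9 2136 by either measure. The order behind Hoxd9 therefore depends on which exons are taken as the gene, as at E11.5. No read of Hoxc12 was counted in any of the 12 libraries. The summed level of the 38 genes was 517 ± 41.2 CPM per kb at E11.5, from 430.3 to 588, and 177 ± 32.4 at E12.5, from 108 to 232.

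**Figure D1:**
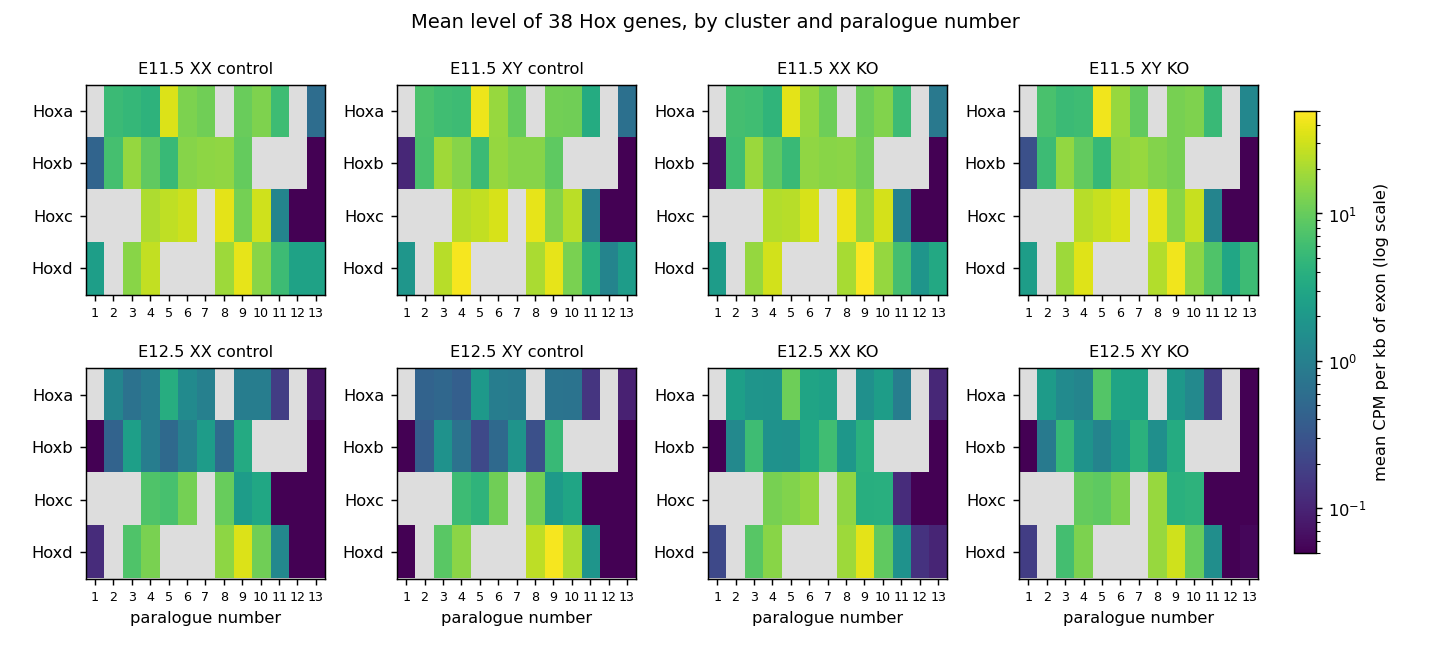
Mean level of each Hox gene in CPM per kb of exon (colour, log scale) by cluster (rows) and paralogue number (columns), with 1 panel per stage and group (n = 3 libraries) and grey where no value is given for that number. At E12.5 the Hoxd8 to Hoxd10 block remains bright in all groups. The Hoxa and Hoxb genes tested are darkest in XY controls, except Hoxb9, which is brightest there.

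The balance between clusters differed among the groups at E12.5. At E11.5 the clusters held 21.7% (Hoxa), 18.6% (Hoxb), 31.8% (Hoxc) and 27.8% (Hoxd) of the summed Hox level per kb over all libraries, and the Hoxd share ranged from 25.6% to 30.7%. At E12.5 the Hoxd share was 67.7% ± 2.06 in XY controls (SD, n = 3), 56.2% ± 1.52 in XX controls, 43.9% ± 4.45 in XX KO and 44.5% ± 3.84 in XY KO gonads. The Hoxa share ran the other way, at 3.98% ± 0.39, 7.28% ± 1.25, 12.52% ± 5.19 and 12.05% ± 1.67 in the same order. Weighted by level, the mean paralogue number was 7.51 ± 0.051 in XY controls, 7.03 ± 0.149 in XX controls, 6.74 ± 0.245 in XX KO and 6.84 ± 0.091 in XY KO gonads. XY controls thus had the code most tilted to high numbers and to Hoxd, and the KO groups of both sexes the code least tilted. A share is relative, so a rise of some clusters lowers the share of the others. The Hoxd level itself was 117 ± 11.3 CPM per kb in XY controls and 82.6 ± 20.1 in XX controls. It was 90.9 ± 4.44 in XX KO, so not lower than in XX controls, and 78.5 ± 7.16 in XY KO. These shares and levels are descriptions, depend on the use of the union of exons as gene length, and were not tested. In bulk RNA, fewer cells of a type and less RNA per cell cannot be told apart.

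**Figure D2:**
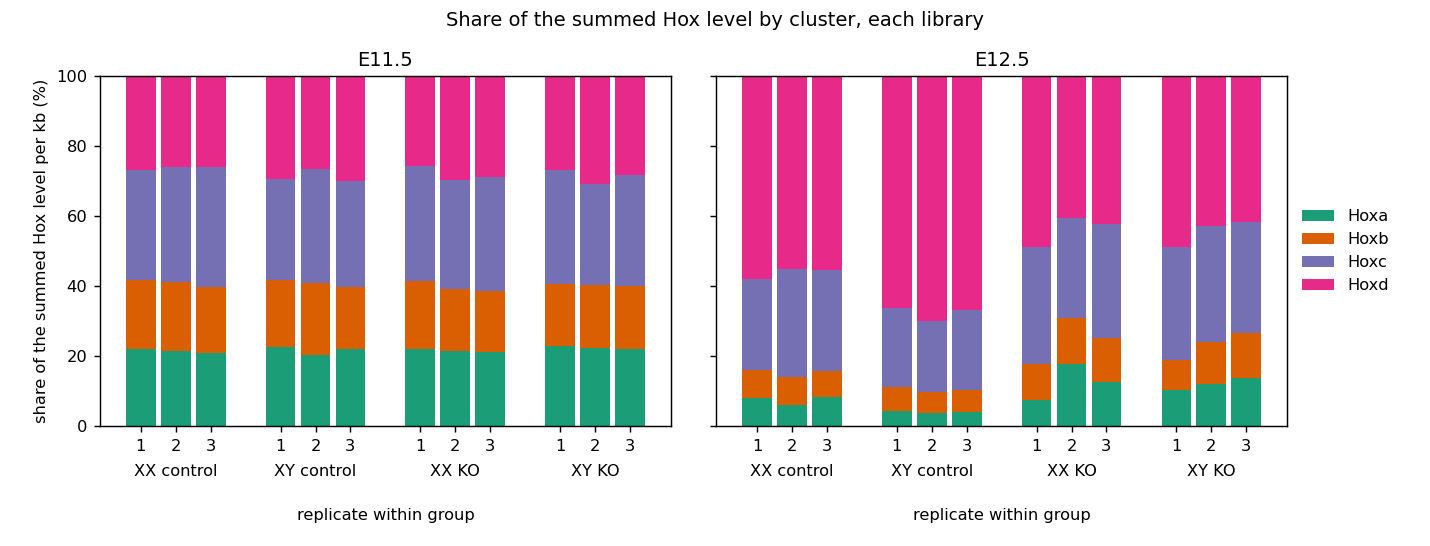
Share (%) of the summed Hox level per kb held by each of the 4 clusters, 1 stacked bar per library, grouped by sex and genotype. The bars at E11.5 are alike, whereas at E12.5 the Hoxd part is tallest in the 3 XY control libraries and shortest in the KO libraries.

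At E11.5 no Hox gene was called in any comparison. Called means a false discovery rate (FDR) under 0.05, the Benjamini-Hochberg adjusted p of edgeR's quasi-likelihood test over all 14217 genes tested at this stage. Between XX and XY controls 0 of 35 were called, against 0.886% of all genes. An unadjusted p under 0.05 was held by 6, against 2546 of all 14217 genes. DESeq2 called 2, and over all genes 170 higher and 269 lower. In XY KO against XY control 0 of 35 were called, against 12.7% of all genes. An unadjusted p under 0.05 was held by 5, against 4106 of all genes. DESeq2 called 2, and over all genes 1154 higher and 1193 lower. In XX KO against XX control the background was 3.27%, and 3 Hox genes had an unadjusted p under 0.05, against 2228 of all genes. DESeq2 called 1 Hox gene there, and over all genes 420 higher and 358 lower. For XX KO against XY KO the background was 0.0844%, and for the interaction, the XY KO effect minus the XX KO effect, it was 0.0352%. They had 1 and 2 Hox genes under an unadjusted p of 0.05, against 2291 and 1825 of all genes. DESeq2 called no Hox gene in either. The median log2 difference of the 35 was -0.07 between control sexes, 0.06 in XY KO and 0.09 in XX KO, beside -0.01, -0.03 and -0.00 over all genes.

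The nearest misses at E11.5 were Hoxb9 and Hoxb1, followed by Hoxb4. Hoxb1, normally a hindbrain gene, was at 0.639, 1.58 and 1.05 CPM in XX controls, 0.459, 0.112 and 0.190 in XY controls, 0.0780, 0.0850 and 0.323 in XX KO and 0.259, 1.38 and 0.256 in XY KO tissue. Its XX KO libraries all lay below the XX controls, by a log2 difference of -2.81 ± 0.74 (SE; edgeR FDR = 0.0529), at counts of 2 to 54 per library over the stage. Since Hoxb1 passed the filter only through the XX controls, the group in which it was high, this difference is not independent of the filter. Hoxb9 was at 24.3, 25.6 and 19.7 CPM in XY controls and at 33.9, 29.9 and 30.3 in XY KO, which did not overlap (log2 difference 0.44 ± 0.14, edgeR FDR = 0.0517). Hoxb4 had a log2 difference of -0.55 in XY KO (edgeR FDR = 0.0757). The high-numbered Hoxd11, Hoxd12 and Hoxd13 had XY KO log2 differences of 0.94, 1.37 and 1.30, with edgeR FDRs of 0.105, 0.121 and 0.191.

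One E11.5 library decided much of this. XY control replicate 2 had 62.3 CPM of Hoxd3 against 129 and 111 in replicates 1 and 3, 81.1 CPM of Hoxd4 against 176 and 146, and 24.7 CPM of Hoxb4 against 47.0 and 37.3. The same library had a summed level of 392 CPM over 9 markers of mesonephric tubules and duct, against 272 and 223 in the other XY controls. It therefore resembled the XX controls in these genes, and the part of the dissection in this was not tested. Without it, edgeR called 5 Hox genes between control sexes (Hoxd12 higher in XX, Hoxa6, Hoxb4, Hoxd3 and Hoxd4 lower), 5 in XY KO (Hoxb9 and Hoxd12 higher, Hoxb4, Hoxd3 and Hoxd4 lower), 1 in XX KO (Hoxb1, lower) and 2 in the interaction (Hoxd3 and Hoxd4, lower). Calls over all genes rose as well, so a rise in calls without this library was not particular to Hox genes. Between control sexes they went from 51 higher and 75 lower to 1005 and 1490. In XY KO they went from 836 and 968 to 1287 and 1604, in XX KO from 258 and 207 to 382 and 282. In the interaction they went from 1 and 4 to 34 and 194. Hoxd3 and Hoxd4 share exons, so their calls in these comparisons are not separate results. XX KO replicate 3 was also apart, with 62.3 CPM of Hoxa10, 23.5 of Hoxa11, 93.0 of Hoxc10 and 41.1 of Hoxd11, the highest values of these genes in its group.

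At E12.5, Hox genes were called between XX and XY control gonads about as often as other genes. Of 28 Hox genes tested, 4 were higher in XX (Hoxa2, Hoxa4, Hoxb5 and Hoxc5) and 3 were lower (Hoxb9, Hoxd8 and Hoxd10), together 25.0%, against 11.4% higher, 12.4% lower and 23.8% in all of the 14348 genes tested. By position, the calls were higher for 1 of 5 genes of paralogue numbers 1 to 3, higher for 3 and lower for 1 of 15 of numbers 4 to 8, and lower for 2 of 8 of numbers 9 to 13. Among the 22 genes that passed the filter in each group alone, 1 was higher and 3 were lower; the other 3 higher calls fell on genes that passed through the other groups only. The median log2 difference was 0.36 over the 28 and 0.01 over all genes.

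Hoxa2, a hindbrain and neural crest patterning gene, was at 1.91, 1.41 and 2.87 CPM in XX controls, 0.740, 0.520 and 1.13 in XY controls, 2.30, 6.06 and 4.75 in XX KO and 3.505, 3.37 and 4.94 in XY KO, with XX above XY controls by 1.43 ± 0.43 (edgeR FDR = 0.0263). Hoxa4 was at 1.49, 1.26 and 1.62 CPM in XX controls, 0.653, 0.520 and 0.781 in XY controls, 1.41, 3.69 and 3.45 in XX KO and 1.87, 1.89 and 1.77 in XY KO. Its group means stood in the same order as those of Hoxa2, and its control difference was 1.19 ± 0.39 (edgeR FDR = 0.0382).

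The 3 genes lower in XX than in XY controls carry higher paralogue numbers. Hoxd8, one of the most abundant Hox messages of the gonad, was at 44.3, 32.8 and 49.7 CPM in XX controls, 53.4, 71.7 and 80.9 in XY controls, 50.6, 49.1 and 50.6 in XX KO and 52.0, 43.0 and 48.2 in XY KO. Hoxd10, a limb and spinal cord patterning gene, was at 24.8, 12.1 and 24.0 CPM in XX controls, 42.4, 36.0 and 38.0 in XY controls, 17.5, 20.4 and 13.03 in XX KO and 19.5, 15.2 and 20.1 in XY KO. Both were highest in the XY controls, with no overlap with any other group. XX control minus XY control log2 differences were -0.70 ± 0.17 for Hoxd8 (edgeR FDR = 0.00677) and -0.94 ± 0.24 for Hoxd10 (edgeR FDR = 0.00899). Hoxb9 was at 9.12, 6.55 and 10.5 CPM in XX controls, 10.6, 14.9 and 15.4 in XY controls, 8.87, 10.5 and 11.2 in XX KO and 7.71, 9.38 and 10.01 in XY KO, and its control difference was -0.64 ± 0.21 (edgeR FDR = 0.0381). The lowest XY control of Hoxb9 lay just above the highest XX control. Hoxd8 and Hoxd10 were called in all 20 alternatives run, whereas the count of 7 fell to 3 without XX control replicate 1 or 3, XY control replicate 1 or 3 or XY KO replicate 2, and to 2 without XY control replicate 2.

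**Figure D3:**
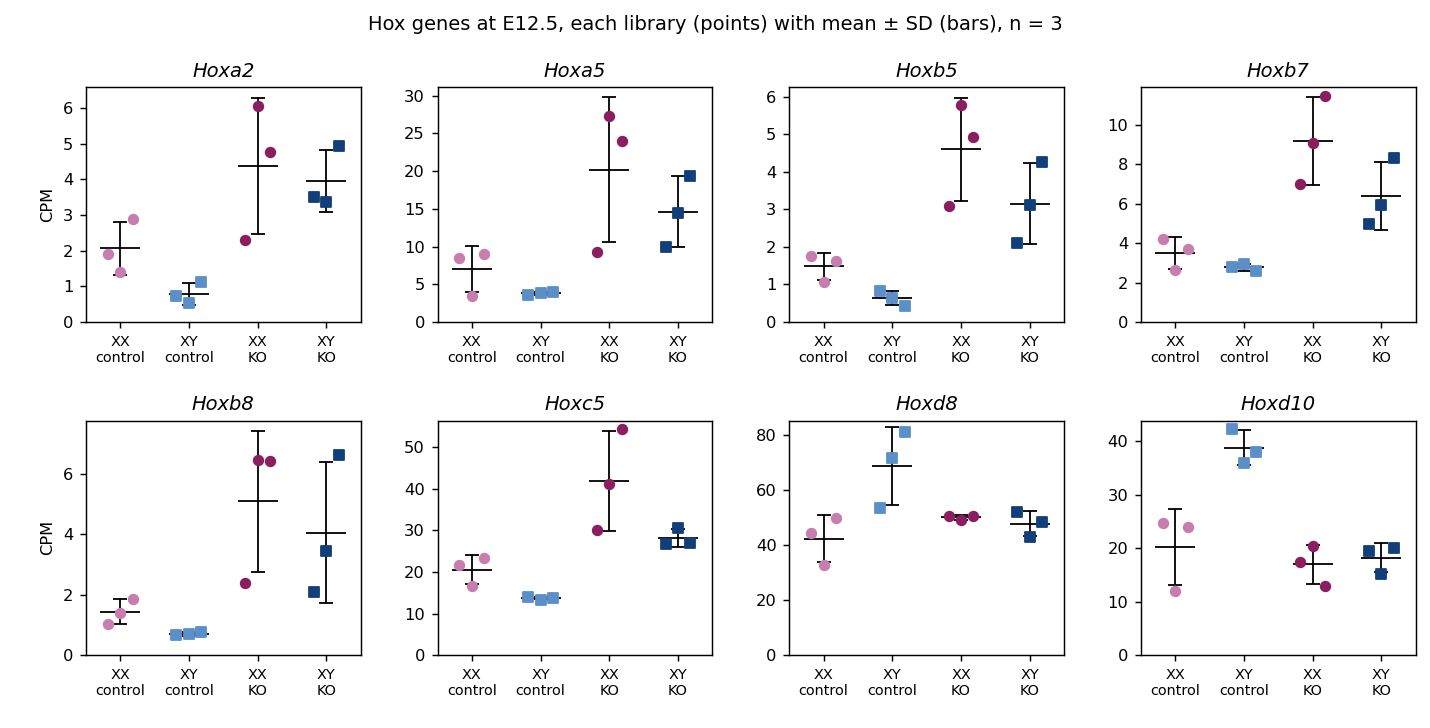
CPM of 8 Hox genes at E12.5 in each library (points) with the mean and SD (bars, n = 3) for the 4 groups. XY controls are lowest for Hoxa2 (0.520 to 1.13) and highest for Hoxd10 (36.0 to 42.4), and KO libraries are highest for Hoxc5.

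Loss of miR-17~92 in XY gonads at E12.5 went with a change of 19 of the 28 Hox genes tested, 16 higher and 3 lower, or 67.9%, against 20.6% of all genes (10.3% higher and 10.3% lower). By cluster, 7 of 8 Hoxa genes, 6 of 8 Hoxb genes and 3 of 6 Hoxc genes rose, and 3 of 6 Hoxd genes fell, with median log2 differences of 1.57, 1.48, 0.67 and -0.48. By position, 3 of 5 genes of numbers 1 to 3 rose, 11 of 15 of numbers 4 to 8 rose and 1 fell, and of the 8 with numbers 9 to 13, 2 rose and 2 fell. The median over the 28 was 1.09, beside -0.01 over all genes. Of the 22 genes that passed the filter in each group alone, 10 rose and 3 fell, with a median of 0.81. The other 6, which passed in every group except the XY controls, all rose, which is not independent of the filter. All 19 called genes separated the XY KO from the XY control libraries, as did all 10 called in XX KO for XX. Separation of libraries therefore adds little to a call, and its share over all genes was not counted.

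Among the low-numbered genes, the XY KO difference of Hoxa2 was 2.38 ± 0.42 on the log2 scale (edgeR FDR = 0.000828). Every XY KO library of Hoxa2 lay above every control library of either sex, but Hoxa2 passed the filter in every group except the XY controls. Hoxb3, whose product is known for hindbrain and pharyngeal patterning, was at 12.3, 8.07 and 11.4 CPM in XX controls, 8.27, 5.89 and 7.64 in XY controls, 17.5, 34.5 and 21.9 in XX KO and 13.3, 22.3 and 29.9 in XY KO, a rise of 1.60 in XY (edgeR FDR = 0.00162).

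Most of the called genes lay in the middle of the clusters, where 15 of the 28 genes tested lie. Hoxa5, a gene of lung and axial skeleton development, was at 8.50, 3.48 and 8.99 CPM in XX controls, 3.61, 3.81 and 3.99 in XY controls, 9.23, 27.3 and 24.0 in XX KO and 9.99, 14.5 and 19.4 in XY KO (XY log2 difference 1.95 ± 0.41, edgeR FDR = 0.00325). Hoxb5 was at 1.75, 1.06 and 1.62 CPM in XX controls, 0.827, 0.650 and 0.434 in XY controls, 3.09, 5.77 and 4.94 in XX KO and 2.103, 3.10 and 4.26 in XY KO (2.26 ± 0.37, edgeR FDR = 0.000477). Hoxb8 was at 1.03, 1.41 and 1.87 CPM in XX controls, 0.653, 0.693 and 0.781 in XY controls, 2.40, 6.45 and 6.42 in XX KO and 2.103, 3.44 and 6.63 in XY KO (2.56 ± 0.49, edgeR FDR = 0.00148). In all 3 genes every KO library of either sex lay above every control library. Hoxb5 and Hoxb8, like Hoxb6 below, passed the filter in every group except the XY controls. Hoxb7 was at 4.22, 2.62 and 3.68 CPM in XX controls, 2.78, 2.95 and 2.60 in XY controls, 6.996, 9.10 and 11.47 in XX KO and 4.97, 5.94 and 8.32 in XY KO (1.21, edgeR FDR = 0.00414). Hoxa7 was at 4.28, 2.17 and 2.19 CPM in XX controls, 2.57, 2.95 and 2.17 in XY controls, 5.39, 8.01 and 8.78 in XX KO and 4.50, 7.69 and 11.54 in XY KO (1.62, edgeR FDR = 0.00409). Hoxb6 was at 2.42, 1.61 and 2.00 CPM in XX controls, 1.65, 0.953 and 0.521 in XY controls, 4.34, 7.74 and 6.13 in XX KO and 2.103, 4.18 and 5.51 in XY KO (1.86, edgeR FDR = 0.00448). Hoxb4 was at 2.11, 1.92 and 3.12 CPM in XX controls, 2.00, 1.60 and 1.56 in XY controls, 2.56, 4.95 and 5.44 in XX KO and 3.33, 4.72 and 5.24 in XY KO (1.36, edgeR FDR = 0.00717). Of these, Hoxb7 and Hoxa7 were also above both control groups in all 6 KO libraries, whereas XY KO replicate 1 of Hoxb6 and XX KO replicate 1 of Hoxb4 lay within the XX controls.

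Of the 6 Hoxc genes tested, which belong to a cluster that patterns the thoracic region, Hoxc4, Hoxc5 and Hoxc9 rose in XY KO and Hoxc4 and Hoxc5 in XX KO. Hoxc5 was at 21.6, 16.7 and 23.5 CPM in XX controls, 13.9, 13.4 and 13.8 in XY controls, 30.1, 41.2 and 54.4 in XX KO and 26.8, 30.6 and 27.0 in XY KO (XY log2 difference 1.04 ± 0.19, edgeR FDR = 0.00132). Hoxc4 was at 18.8, 16.99 and 22.4 CPM in XX controls, 11.4, 15.7 and 17.4 in XY controls, 25.4, 32.7 and 34.5 in XX KO and 23.6, 25.8 and 25.2 in XY KO (0.76, edgeR FDR = 0.0065). Both separated KO from control libraries in each sex. The most abundant Hoxc messages were not called: Hoxc6 ranged from 26.1 to 28.6 CPM in XY controls and from 28.7 to 33.1 in XY KO (0.19, edgeR FDR = 0.354), and Hoxc8 from 28.7 to 39.7 and from 36.3 to 62.6 (0.59, edgeR FDR = 0.0576).

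Of the 6 Hoxd genes tested, Hoxd8, Hoxd9 and Hoxd10 fell in XY KO, and none was called in XX KO. The XY KO log2 difference of Hoxd10 was -1.08 ± 0.24 (edgeR FDR = 0.00425) and that of Hoxd8 was -0.52 ± 0.17 (edgeR FDR = 0.0403). Hoxd9, the most abundant Hox message per length, was at 86.1, 52.4 and 82.5 CPM in XX controls, 82.4, 119 and 89.5 in XY controls, 83.7, 74.5 and 86.0 in XX KO and 57.5, 58.8 and 76.1 in XY KO, an XY difference of -0.60 ± 0.19 (edgeR FDR = 0.0378). Hoxd3 and Hoxd4, which share exons, had differences of -0.44 and -0.23 (edgeR FDR = 0.155 and 0.42), and Hoxd11 -0.28 (edgeR FDR = 0.741). The other called genes, Hoxa4, Hoxa3, Hoxa9, Hoxa6 and Hoxc9, rose by 0.92 to 1.61 (edgeR FDR from 0.0102 to 0.0366). Of the 19, 12 (Hoxa2, Hoxa5, Hoxa7, Hoxb3 to Hoxb8, Hoxc4, Hoxc5 and Hoxd10) were called in all 20 alternatives, and the count fell to 12 without XY control replicate 2.

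**Figure D4:**
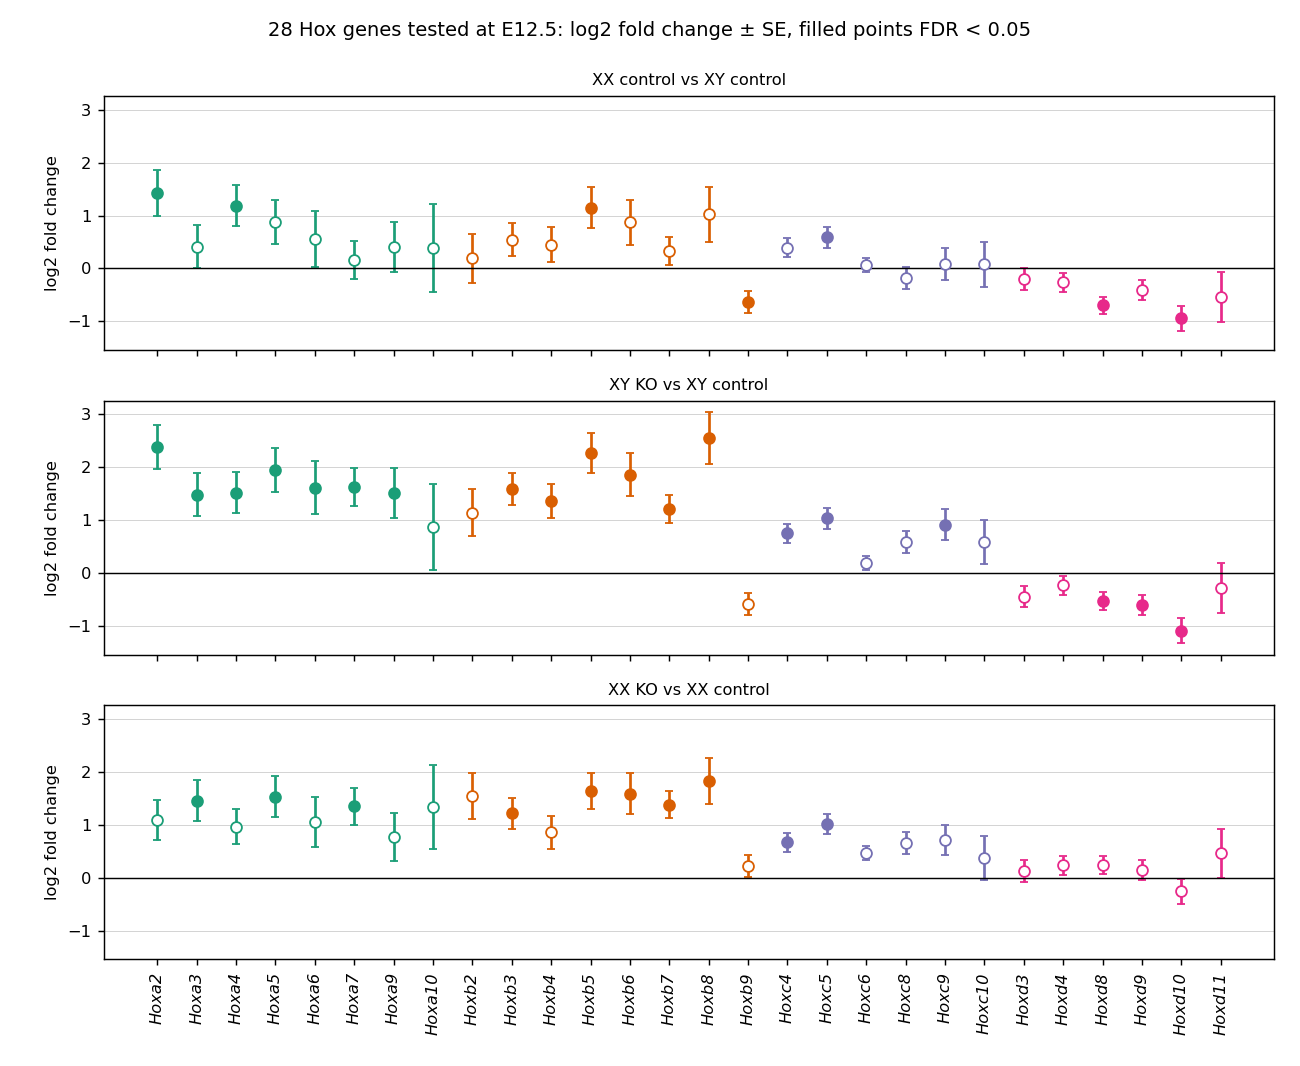
log2 fold change ± SE (y axis) of the 28 Hox genes tested at E12.5 (x axis, in cluster order, 1 colour per cluster) for XX control against XY control, XY KO against XY control and XX KO against XX control, with filled points at FDR under 0.05. In the XY KO panel the filled Hoxa, Hoxb and Hoxc points lie above 0 and the filled Hoxd points below, and in the XX KO panel no Hoxd point is filled.

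In XX gonads, loss of the cluster at E12.5 went with a rise of 10 of the 28 Hox genes and a fall of none, or 35.7%, against 5.26% of all genes (3.42% higher and 1.85% lower). The 10 were Hoxa3, Hoxa5, Hoxa7, Hoxb3, Hoxb5, Hoxb6, Hoxb7, Hoxb8, Hoxc4 and Hoxc5, and all 10 were among the 16 that rose in XY KO. That comparison has its own controls and KO libraries but is estimated in the same fit. How far such calls overlap over all genes was not counted. Hoxb5, Hoxb6 and Hoxb8 passed the filter in every group except the XY controls, so their part of the overlap is not independent of the filter. By cluster 3 of 8 Hoxa, 5 of 8 Hoxb, 2 of 6 Hoxc and 0 of 6 Hoxd genes rose, with medians of 1.22, 1.47, 0.67 and 0.19. By position 2 of 5, 8 of 15 and 0 of 8 genes of numbers 1 to 3, 4 to 8 and 9 to 13 rose. The median log2 difference was 0.92 over the 28 and -0.00 over all genes.

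The smallest FDRs were those of Hoxc5, with a log2 difference of 1.03 ± 0.19 (edgeR FDR = 0.011), and Hoxb7, with 1.39 ± 0.26 (edgeR FDR = 0.0112). Hoxb5 rose by 1.64 ± 0.34 (edgeR FDR = 0.0169) and Hoxb8 by 1.83 ± 0.44 (edgeR FDR = 0.0315). Hoxb6 (1.59), Hoxb3 (1.22), Hoxa5 (1.54), Hoxa7 (1.36) and Hoxc4 (0.67) followed, with edgeR FDRs from 0.0311 to 0.0388. Hoxa3 was at 4.33, 2.62 and 5.12 CPM in XX controls and 6.24, 14.5 and 12.3 in XX KO, and in XY at 3.83, 2.51 and 2.60 in controls and 4.91, 6.75 and 13.3 in KO (XX log2 difference 1.46 ± 0.39, edgeR FDR = 0.0441). Hoxb2 (1.55, edgeR FDR = 0.0514) and Hoxc6 (0.47, edgeR FDR = 0.0534) fell just outside the threshold.

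The XX KO count changed with single libraries. It fell to 0 without XX control replicate 1, XX control replicate 2 or XX KO replicate 3, to 6 without XY KO replicate 2 and rose to 15 without XX KO replicate 1. In the 3 fits with no Hox call, calls over all genes also fell, from 755 to 35, 83 and 117, while the median Hox log2 difference was 0.97, 0.79 and 0.81. XX KO replicate 1 was the lowest XX KO library for all 10 genes, and XX control replicate 2 the lowest XX control for all but Hoxb8. XX KO replicate 2 stood apart in the high-numbered genes, with 19.0 CPM of Hoxa10 against 2.07 and 1.60, and 5.66 CPM of Hoxa11 against 0.394 and 0.399. It also held 13.2 CPM of Hoxd11 against 4.50 and 3.92, so that these 3 genes were high in 1 library of 3.

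Between the KO groups at E12.5 no Hox gene was called by edgeR, against 0.153% of all genes, or by DESeq2. An unadjusted p under 0.05 was held by 2 Hox genes, against 2752 of the 14348 genes tested. The nearest were Hoxc5 (XX KO minus XY KO log2 difference 0.58 ± 0.19) and Hoxc6 (0.34 ± 0.13), each with an edgeR FDR of 0.235. The KO effect itself differed between the sexes for 1 gene, Hoxd8, or 3.57%, against 12.9% of all genes. For Hoxd8 the XY KO effect minus the XX KO effect was -0.77 ± 0.24 (edgeR FDR = 0.0472). It was called in 8 of 19 alternatives of this comparison, and was not called on leaving out any 1 of XX control replicates 1 and 2, XY control replicates 2 and 3, XX KO replicates 1 and 3 or XY KO replicates 1, 2 and 3. Without XY KO replicate 3, Hoxd9 was called in its place. For Hoxd9 (-0.74, edgeR FDR = 0.0891), Hoxb9 (-0.81, edgeR FDR = 0.0895) and Hoxd10 (-0.83, edgeR FDR = 0.127) the difference of effects did not pass.

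Genes with a seed match behaved as follows at E12.5. Of the 4 tested, Hoxa5, Hoxa9 and Hoxb8 rose in XY KO and Hoxd8 fell, and Hoxa5 and Hoxb8 rose in XX KO. Of the 24 tested without a match, 13 rose and 2 fell in XY KO, and 8 rose in XX KO.

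Some markers of other cell types moved with these changes. Cdh16, a cadherin of kidney and mesonephric tubules, was at 0.464, 0.655 and 1.31 CPM in XX controls, 0.435, 0.130 and 0 in XY controls, 14.8, 59.6 and 76.2 in XX KO and 4.50, 24.3 and 49.1 in XY KO at E12.5 (log2 difference 5.99 in XX, edgeR FDR = 0.00913, and 6.85 in XY, edgeR FDR = 0.000865). At E11.5, with the mesonephros present, it was at 62.1 to 118. Pax2, a transcription factor of the same epithelium, was at 1.44, 2.12 and 2.31 CPM in XX controls, 1.00, 0.867 and 0.868 in XY controls, 2.30, 7.47 and 7.15 in XX KO and 0.993, 2.70 and 6.41 in XY KO. It was called in XY KO and not in XX KO. Lhx1, on the same list of mesonephric markers, went the other way. It was at 4.95, 9.43 and 3.93 CPM in XX controls and 21.1, 19.6 and 20.6 in XY controls. In XX KO it was at 1.61, 4.89 and 2.65 CPM, overlapping the XX controls, and in XY KO at 4.09, 5.87 and 7.99. The summed level of all Hoxa and Hoxb genes was 25.4, 15.2 and 27.4 CPM per kb in XX controls, 17.5, 17.6 and 18.2 in XY controls, 31.1, 71.3 and 55.4 in XX KO and 30.4, 39.9 and 54.7 in XY KO. Replicate 1 of each KO group was thus lowest in Hoxa and Hoxb, in Cdh16 and in Pax2. Of the 9 mesonephric markers, 8 were tested. In XY KO 5 rose and 1 fell, or 75% against 20.6% of all genes, and 6 of the 8 had a log2 difference above 0. In XX KO 3 rose, or 37.5% against 5.26% of all genes, and 4 of the 8 had a log2 difference above 0. The summed level of the 9 markers was 74.7 to 116 CPM in XX controls, 92.8 to 105 in XY controls, 90.8 to 165 in XX KO and 68.6 to 153 in XY KO. The lowest sums of the KO groups, 68.6 CPM in XY and 90.8 in XX, were those of replicate 1, in which Cdh16 was above all controls of its sex. The part of mesonephric cells in the Hox changes was not tested.

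**Figure D5:**
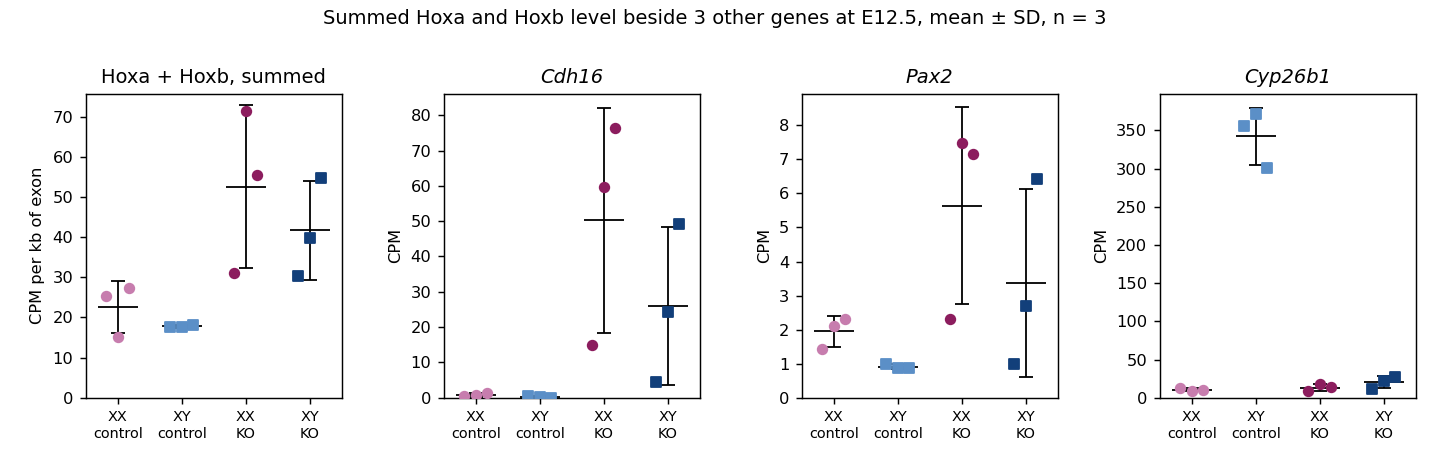
Summed Hoxa and Hoxb level (CPM per kb of exon) beside Cdh16, Pax2 and Cyp26b1 (CPM) at E12.5, each library as a point with mean and SD (bars, n = 3). In both KO groups replicate 1 is lowest for Hoxa plus Hoxb, Cdh16 and Pax2, and Cyp26b1 is high (300.1 to 371 CPM) in the 3 XY controls only.

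The cell types of the testis moved too. All 6 Sertoli markers fell in XY KO, their sum going from between 1103 and 1751 CPM in XY controls to between 17.2 and 34.3. All 5 fetal Leydig markers fell there too, from a sum of 822 to 1766 CPM to one of 31.3 to 40.7. All 5 pre-granulosa markers rose in XY KO, and their sum was 75.3 to 103 CPM in XY controls and 528 to 892 in the other groups. XY controls thus differed from the 3 other groups in cell types as they did in Hoxd8 and Hoxd10, and the part of these cell types was not tested. In XX KO none of the Sertoli, fetal Leydig or pre-granulosa markers was called. Of 7 germ cell markers, Pou5f1 and Dppa3 fell in XY KO and Pou5f1 and Tfap2c in XX KO, and their sum was 790.4 to 1483 CPM in XX controls, 810.2 to 1101 in XY controls, 327 to 766 in XX KO and 625 to 772 in XY KO. In XY KO 2 of 6 endothelial markers rose, of 3 neural markers tested 1 rose and 2 fell, and of 4 gut markers tested 2 rose and 1 fell, while in XX KO none of these was called. Over all genes 20.6% were called in XY KO and 5.26% in XX KO. The lists share genes, so their counts are not separate results. Sox10 is in the Sertoli and the neural list, and Cdx1 and Cdx2, named below, are in the gut list. Pax2 is in the mesonephric list and in the list of genes that act with the Hox11 proteins, given below. The part of these cell types in the Hox changes was not tested. Limb markers summed to 13 to 44 CPM, with 1 of 3 tested lower in each KO comparison, and skeletal muscle markers to 3.34 to 16.4 CPM, with 1 of 2 tested lower in XY KO.

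Hox proteins bind DNA together with TALE homeodomain cofactors of the Pbx, Meis and Pknox families. At E12.5, 9 were tested, and 33.3% were called in XY KO and 11.1% in XX KO, against 20.6% and 5.26% of all genes. Pbx3 was at 60.2, 70.7 and 73.9 CPM in XX controls, 36.3, 38.7 and 44.1 in XY controls, 124.8, 80.1 and 105 in XX KO and 102, 96.7 and 78.1 in XY KO. It rose by 1.22 on the log2 scale in XY KO (edgeR FDR = 8.57e-05) and by 0.60 in XX KO (edgeR FDR = 0.0472), the same order of groups as Hoxc5. Meis1 rose in XY KO by 0.90 (edgeR FDR = 0.00193), and Pknox2 fell there by 0.66 (edgeR FDR = 0.00109); the difference between the sexes passed for Pknox2 (-0.89) and not for the other two. At E11.5 none of the 9 was called in any comparison.

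Retinoic acid, Cdx factors and Gdf11 set Hox expression in the early embryo. Of 10 such genes tested at E12.5, 3 rose and 1 fell in XY KO, or 40% against 20.6% of all genes. None was called in XX KO, against 5.26% of all genes. Cyp26b1, which degrades retinoic acid and keeps germ cells of the testis from it, was at 13.1, 8.67 and 10.5 CPM in XX controls, 356, 371 and 300.1 in XY controls, 8.41, 17.9 and 14.1 in XX KO and 11.97, 21.9 and 27.7 in XY KO. It was high in the XY controls and low in the other groups (XY KO log2 difference -4.05, edgeR FDR = 4.14e-07). Cdx2, an activator of Hox genes in the posterior embryo, was at 6.70, 13.3 and 14.4 CPM in XX controls, 0.0870, 0.130 and 0 in XY controls, 9.20, 6.20 and 5.26 in XX KO and 4.79, 6.21 and 4.01 in XY KO (XY KO log2 difference 5.77, edgeR FDR = 2.38e-06). It was low in XY controls alone. Rarb, a retinoic acid receptor gene, rose by 1.23 in XY KO (edgeR FDR = 0.00591), and Cdx1 by 1.31 (edgeR FDR = 0.0213). At E11.5, of 9 tested, 5 were called in XY KO, or 55.6% against 12.7% of all genes. Cyp26b1 was at 80.7, 110 and 108 CPM in XY controls and 46.0, 42.2 and 39.1 in XY KO (-1.23, edgeR FDR = 3.49e-05). Rarb and Tgfbr1 rose there, and Rara and Rarg fell.

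Genes that act with the Hox11 proteins in the kidney were mixed at E12.5. Of 7 tested, 4 rose in XY KO (Itga8 by 1.43, Pax2 by 1.92, Sall1 by 1.10 and Osr1 by 1.07) and 2 fell (Gdnf, -5.10, and Eya1, -2.45), or 85.7% against 20.6% of all genes. In XX KO Osr1 rose by 1.43 and Sall1 by 1.09, or 28.6% against 5.26% of all genes. Gdnf, a growth factor also made by Sertoli cells, was at 48.9, 57.7 and 47.5 CPM in XY controls and 1.64, 1.82 and 1.17 in XY KO. At E11.5 none of 8 was called.

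Of 6 non-coding RNA genes of the clusters tested at E12.5, 3 rose in XY KO and 1 in XX KO. These are 50% and 16.7%, against 20.6% and 5.26% of all genes. Hotairm1 rose by 1.96 and Hoxaas2 by 1.94 in XY KO, and Hoxaas3 by 1.65 in XY KO and by 2.08 in XX KO. Hoxaas2 and Hoxaas3 share exon bases with Hoxa3 on the opposite strand, and Hoxaas3 also with Hoxa7. Since the strand setting was not given, these rises may not be separate from those of Hoxa3 and Hoxa7. Between controls Hotairm1 was higher in XX by 1.79, and the microRNA gene Mir196a-1 was lower (-0.64). Hoxb5os, Haglr and Mir196a-1 were not called in either KO comparison. Hoxaas3 was at 0.567, 0.403 and 0.250 CPM in XX controls, 0.522, 0.477 and 0.521 in XY controls, 0.887, 2.90 and 1.42 in XX KO and 1.34, 0.944 and 2.35 in XY KO, with no overlap between KO and control libraries. None of 10 was called at E11.5.

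Polycomb and trithorax proteins hold Hox genes silent or active. Of 21 tested at E12.5, 2 rose and 1 fell in XY KO, or 14.3% against 20.6% of all genes (Cbx6 by 0.70, Ezh1 by 0.38, and Phc1, -0.32), and in XX KO Cbx6 alone passed, with a rise of 0.75, or 4.76% against 5.26% of all genes. At E11.5, 5 rose in XY KO (Cbx6, Bmi1, Phc3, Rnf2 and Suz12) and 2 fell (Cbx7, -0.94, and Kdm6b, -0.44), or 33.3% against 12.7% of all genes. In XX KO at that stage Cbx6 rose by 0.64 and Phc3 by 0.73, or 9.52% against 3.27% of all genes.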

How the data were processed

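The authors aligned reads to mm10 and counted them per gene with featureCounts in the subread package; annotation, strand and multimapping settings were not given in the sources used here. The deposited values were raw counts per gene. Here, 24 libraries of 36 samples were used; 12 columns of another mutant were not used. Counts were tested with edgeR 4.0.16 (R 4.3.3) by a quasi-likelihood test, with TMM scaling, all 12 libraries of a stage in 1 fit without covariates, genes at 1 CPM or more in at least 2 libraries, and FDR under 0.05. An exact permutation test of 3 against 3 libraries cannot go below p = 0.1. Levels were CPM over TMM-scaled library size, divided by the union of exons in kb (GENCODE M21, GRCm38). The common coefficient of biological variation was 0.132 (E11.5) or 0.172 (E12.5). Named with values were up to 12 called genes of smallest FDR per comparison and the 5 highest per stage; genes that missed the threshold or stood apart in 1 library were added after their values were seen. The members and lists were chosen with earlier results of these data known. Of the Hox genes 1, and of the mesonephric markers 1, is not reported here and is in no count or sum over its list. Scripts were tested on simulated data. Alternatives included DESeq2 1.42.0.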

Additional observations from a re-analysis of the deposited data

Results flagged for a closer look

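The effect of the KO at E12.5 differed between XY and XX gonads in a tested interaction for Hoxd8, by -0.77 (log2, edgeR FDR = 0.0472). The XY KO difference also had opposite signs at the 2 stages for Hoxb9, by -1.02 (log2 difference at E12.5 minus that at E11.5), and for Hoxd10, by -1.39: every XY KO library lay above every XY control at E11.5 and below at E12.5. Of these, the Hoxd10 fall at E12.5 alone passed the threshold (at E11.5 neither gene was called, and Hoxb9 was not called at E12.5). This difference between stages was not tested, and stage, dissection and library kit cannot be told apart. Hoxb9 and Hoxd10 were found by searching the Hox genes tested at each stage, in each sex, for opposite separation of the libraries. The share of all genes with such a pattern was not counted.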

How the results depend on the processing

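At E11.5 the count of 0 called Hox genes became 1 in XY KO with DESeq2-style RLE size factors (Hoxb9), 1 in XY KO (Hoxb9) and 1 in XX KO (Hoxb1) with no filter on low counts, and 1 in XX KO (Hoxb1) with the 2 groups fitted alone. DESeq2 called 2 between controls (Hoxd3 and Hoxd4), 2 in XY KO (Hoxb9 and Hoxb4) and 1 in XX KO (Hoxb1). Leaving out 1 library at a time gave 0 to 5 between controls, 0 to 5 in XY KO, 0 to 1 in XX KO and 0 to 2 in the interaction. Leaving out XY control replicate 2 and XX KO replicate 3 together, an alternative chosen after seeing the data, gave 7 between controls, 5 in XY KO, 1 in XX KO and 2 in the interaction. Over all genes that fit called 1435 higher and 1621 lower between controls, and 1628 and 1719 in XY KO. In XX KO it called 241 and 203, and in the interaction 75 and 216. At E12.5 scaling by library size alone gave 0 in the interaction in place of 1, and the 2 groups fitted alone gave 5 in XX KO in place of 10. Leaving out 1 library gave 2 to 7 between controls, 12 to 20 in XY KO, 0 to 15 in XX KO and 0 to 1 in the interaction. Of these E12.5 fits, calls over all genes are given above only for those with no Hox call in XX KO. The other counts stand without a background. Leaving out XX KO replicate 2 and XX control replicate 2 together, also chosen after seeing the data, gave 0 in XX KO, 1 between the KO groups (Hoxa10) and 3 in the interaction (Hoxa9, Hoxa10 and Hoxc10). The causes were not tested. No result reversed. Library-size scaling moved the share of higher calls of all genes in XX KO at E11.5 from 55.5% to 41.8%. Replicate numbers did not pair the samples: deviations of same-numbered libraries correlated at -0.20 to 0.35 at E11.5 and -0.38 to 0.29 at E12.5. With the replicate block, 0 were called in every E11.5 comparison, and at E12.5 5 between controls, 19 in XY KO, 10 in XX KO, 0 between the KO groups and 1 in the interaction. Members under 1 CPM, such as Hoxb5 in XY controls, rest on few counts.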
